A study of Mus musculus with 79 samples.

Results

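Adenosine receptors and the proteins that make, phosphorylate and move adenosine were followed through 7 genes, chosen by name: the receptors Adora1, Adora2a and Adora2b, the adenosine-forming enzyme Nt5e, the adenosine-phosphorylating enzyme Adk, and the transporters Slc29a1 and Slc29a2. All 7 were among the 25899 gene symbols of a mouse expression table of 79 libraries. The libraries hold mRNA bound to tagged ribosomes of neurons that use a dopamine receptor promoter, which asks how gene expression differs by receptor and brain region. In both mouse lines a BAC (bacterial artificial chromosome) transgene expressed the large-subunit ribosomal protein L10a fused to eGFP, from the promoter of the dopamine D1a receptor in one line and of the D2 receptor in the other, and an antibody to GFP pulled the tagged ribosomes from a homogenate. Both lines were kept as heterozygotes on a C57BL/6J background, and the labels give no age and no treatment.

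The D1 line gave 15 libraries from dorsal striatum, 15 from ventral striatum and 19 from prefrontal cortex, and the D2 line gave 16 from dorsal and 14 from ventral striatum, 5 groups in all. Ventral striatum means punches of the nucleus accumbens. Each library pooled tissue of 3 mice with both sexes in the pool, so the spread below is between pools and not between single mice. Whether dorsal, ventral and cortical pools shared mice is not stated. Every cell that uses the transgene's promoter adds to a library, whatever its type, and fewer cells of a type cannot be told apart from less RNA per cell. D2 neurons of prefrontal cortex were not analysed here.

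Adenosine is released by cells or formed outside them from nucleotides, and it acts on G protein-coupled receptors. The receptor encoded by Adora1 inhibits adenylyl cyclase, while those encoded by Adora2a and Adora2b stimulate it. In the striatum Adora2a is a classical marker of the D2 neurons of the indirect pathway. CD73 (Nt5e) converts AMP to adenosine on the cell surface, adenosine kinase (Adk) turns adenosine back into AMP inside cells, and the equilibrative transporters ENT1 (Slc29a1) and ENT2 (Slc29a2) carry adenosine across the membrane in either direction.

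Values are CPM, reads of a gene divided by a library total, as deposited by the authors, and 1 read was worth between 0.0124 and 0.0466 CPM. Depth, counted as reads in listed genes, ran from 7350200 to 30834630 reads per library. Markers of the labelled cell types went with the lines: all 7 D1 neuron markers were higher in the D1 line and all 5 measured D2 neuron markers higher in the D2 line, in both striatal regions, without overlap. Among them are Drd1a and Drd2, whose promoters define the lines. Ttc12 in both regions and Gpr6 in dorsal striatum passed the filter through the D2 line, so these counts are descriptions. Other cells were also present. Summed markers of cortical excitatory neurons had medians of 101.1 CPM in D1 dorsal striatum and 65.98 CPM in D1 ventral striatum, against 8.17 and 11.4 CPM in the D2 groups and 639.3 CPM in cortex. Cholinergic interneurons of the striatum are known to express the D2 receptor, and their markers had medians of 6.32 and 12.2 CPM in D2 dorsal and ventral striatum and at most 1.34 CPM in the D1 groups. Library names begin with 1 of 4 letter codes of unstated meaning (BdP, EM, JAG and OdP), treated here as a possible batch; OdP names were in 13 of the 30 D2 libraries and 1 of the 49 D1 libraries.

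Differences were tested with limma on log2(CPM + 0.5) over the genes that reached 1 CPM in a number of libraries no less than the size of the smaller group. A gene is called where the Benjamini-Hochberg adjusted p was under 0.05. The log2 differences below are on that scale, where differences of weakly expressed genes come out too small, and ± marks the SD over libraries.

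The largest receptor differences were in 3 members, and all were higher in D2 neurons: Adora2a, Nt5e and Adk. In dorsal striatum 4 of the 6 members tested were called, 3 higher in D2 and 1 (Slc29a1) higher in D1. Nt5e entered that comparison through its D2 libraries (16 of 16 reached 1 CPM, against 1 of 15 in D1), so the filter fixed its direction. Of all genes tested in that comparison 25.9% were called. In ventral striatum 4 of 6 were again called, the same 3 higher in D2 and Slc29a2 higher in D1, against 47.7% of all genes. Adora2b passed the filter in no comparison. The median log2 difference (D1 minus D2) of the 6 members was -0.83 in dorsal and -1.24 in ventral striatum, and that of all genes tested was 0.02 in both.

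**Figure D1:**
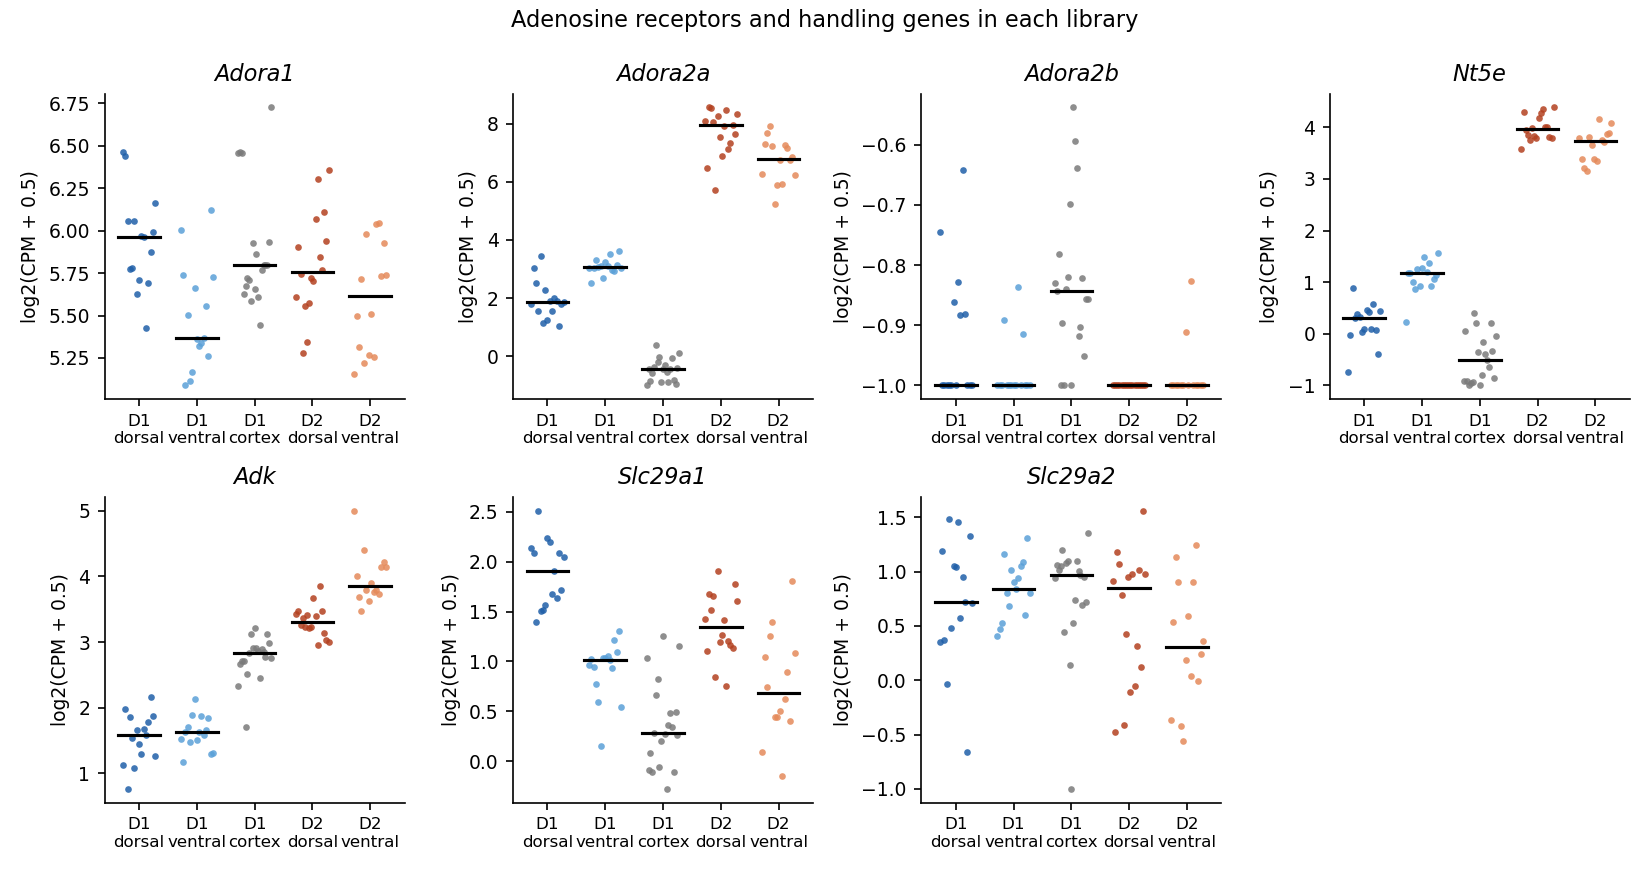
Level of each of the 7 genes in every library, as log2(CPM + 0.5), with one dot per library, a bar at the group median and groups along the horizontal axis, each panel with its own vertical scale. Adora2a, Nt5e and Adk lie higher in every D2 library than in any striatal D1 library of the same region, while Adora1 spans 33.5 to 105 CPM over all 5 groups.

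By the GENCODE M21 annotation (GRCm38), Adora1 lies at chr1:134199223-134235431 on the minus strand, Adora2a at chr10:75316877-75334784 (plus), Adora2b at chr11:62248984-62266453 (plus), Nt5e at chr9:88327197-88372092 (plus), Adk at chr14:21052574-21448569 (plus), Slc29a1 at chr17:45585200-45599606 (minus) and Slc29a2 at chr19:5023860-5031972 (plus). Exons of Adora1 overlap those of Mybph on the opposite strand. The labels do not say whether counting used the strand, so reads in the overlap cannot be assigned for certain, and Mybph had at most 8.37 CPM in a library, with group means of 7.50 to 9.82% of those of Adora1. Exons of Slc29a1 overlap an antisense gene, Gm17080, which reached at most 0.29 CPM.

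Promoter sequence from RefSeq (GRCm38.p6) was matched for 6 of the 7 genes, all but Adora2a. The 250 bases before each of the 2 listed starts of Adk, which was higher in D2 neurons, are shown beside those before the first of 2 starts of Adora1, for which no receptor difference was called. Capitals mark GC boxes (GGGCGG or its reverse complement) and the core of the cyclic AMP response element (TGACG or its reverse complement). The Adk windows are chr14:21052324-21052573 and chr14:21075902-21076151 on the plus strand, and the Adora1 window is chr1:134235458-134235707 on the minus strand.
Adk, start 1: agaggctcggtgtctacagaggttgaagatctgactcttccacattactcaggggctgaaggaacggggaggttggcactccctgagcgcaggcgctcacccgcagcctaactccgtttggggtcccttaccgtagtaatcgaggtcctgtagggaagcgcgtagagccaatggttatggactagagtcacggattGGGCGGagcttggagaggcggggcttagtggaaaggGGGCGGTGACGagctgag
Adk, start 2: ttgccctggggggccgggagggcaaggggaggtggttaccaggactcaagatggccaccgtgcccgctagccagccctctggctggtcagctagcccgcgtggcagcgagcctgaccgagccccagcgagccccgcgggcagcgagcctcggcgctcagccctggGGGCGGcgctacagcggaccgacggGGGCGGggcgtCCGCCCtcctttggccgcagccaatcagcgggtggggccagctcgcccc
Adora1, start 1: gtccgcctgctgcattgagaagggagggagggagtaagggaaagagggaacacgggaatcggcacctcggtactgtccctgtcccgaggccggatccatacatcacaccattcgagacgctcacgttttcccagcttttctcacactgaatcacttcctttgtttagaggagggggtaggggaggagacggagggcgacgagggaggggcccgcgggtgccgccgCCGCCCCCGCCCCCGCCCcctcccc

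The window before Adk start 1 held 2 GC boxes and 1 core, one box adjoining the core, and that before start 2 held 3 GC boxes. The Adora1 window held 3 GC boxes as one run near the gene's start, and no core, and the window before the other Adora1 start, not shown, held 0 GC boxes. On either strand, a GC box is found in 32.7% and the core in 17.8% of 32851 annotated promoter windows of this length. G and C made up 58.8%, 75.2% and 64.4% of the 3 windows, against a median of 52.4% over all windows. The whole response element (TGACGTCA, which contains the core and is in 1.55% of windows) and a TATA box (TATAAA, in 12.4%) were in none of the 3. The matches describe the letters of a window, and gene-level values do not say which Adk start was used.

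Adora2a, the striatal stimulatory receptor, had the widest range of the members. In D2 dorsal striatum its CPM ran from 52.7 through a median of 244.8 to 375.8, and in D1 dorsal striatum from 1.54 through 3.15 to 10.3. In D2 ventral striatum it ran from 37.0 through 110.6 to 238.6, and in D1 ventral striatum from 5.29 through 7.80 to 11.8. Each D2 library was above every D1 library of its region. In prefrontal cortex it ran from 0 through 0.23 to 0.79 CPM, below every striatal library, with a median of 8 reads and 1 of 19 libraries without a read.

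Mean Adora2a was 61.1-fold higher in D2 than in D1 neurons of dorsal striatum (230.4 ± 100.8 against 3.77 ± 2.37 CPM; log2 difference -5.74, SE 0.24, adjusted p = 1.61e-20). The ratio in ventral striatum was 14.7 (119.7 ± 57.6 against 8.16 ± 1.67 CPM; -3.65, SE 0.19, adjusted p = 1.91e-17). The receptor difference was larger in dorsal striatum, and the interaction that tests this was called (-2.09, SE 0.32, adjusted p = 1.12e-05). Both lines contributed, in opposite directions. In D2 neurons Adora2a was 1.93-fold higher in dorsal than ventral striatum (0.94, SE 0.26, adjusted p = 0.00527), with overlap between groups. With the share of a library's reads that fell in genes as a covariate this difference was 0.52 (adjusted p = 0.00748), and in the EM libraries alone it was 0.92 at adjusted p = 0.135, no longer called. In D1 neurons it was 2.16-fold higher in ventral striatum (-1.15, SE 0.17, adjusted p = 2.44e-06), with 13 of 15 dorsal libraries below every ventral one.

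The D2 neuron markers moved with Adora2a in these contrasts between groups. All 5 measured (Drd2, Penk, Gpr6, Sp9 and Ttc12) were called in the interaction, all with the larger receptor difference in dorsal striatum, at a median of -1.40. In D2 neurons 5 of 5 were higher in dorsal striatum, and in D1 neurons 4 of the 4 tested were higher in ventral striatum. In D1 neurons Gpr6 passed the filter through ventral striatum (mean 3.52 CPM, against 0.894 CPM in dorsal striatum), so the D1 count is a description. Mean Adora2a in the D1 line was 1.64% of its mean in the D2 line in dorsal striatum and 6.82% in ventral striatum. For Penk, the proenkephalin gene, the same shares were 2.37% and 9.14%, for the orphan receptor gene Gpr6 2.11% and 13.4%, and for Drd2 0.55% and 1.37%. The share of Adora2a lay above that of Drd2 and below those of Penk and Gpr6 in both regions, while Sp9, a transcription factor of D2 neurons, had larger shares (12.9% and 29.2%) and Ttc12 smaller ones (0.10% and 0.15%). The part of D2 cell RNA in the Adora2a of D1 libraries was not tested.

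Across D1 ventral striatum libraries Adora2a went with Drd2 (Pearson r 0.73, Spearman rho 0.62, n = 15). Without the 2 libraries farthest from the median of Adora2a r was 0.51, and in 11 EM libraries it was 0.61. With Penk r was 0.33 (0.06 without the 2 farthest, 0.28 in EM libraries), and with Gpr6 0.05 (0.33 without the 2 farthest, 0.41 in EM libraries). In EM libraries without their 2 farthest r was 0.82 with Drd2, 0.60 with Penk and 0.17 with Gpr6. In D1 dorsal striatum r was 0.57 with Drd2 (0.18 without the 2 farthest libraries), 0.33 with Penk (0.07 without them) and 0.31 with Gpr6 (0.43 without them). In the 11 EM libraries of that group r with Gpr6 was 0.64 (rho 0.81, and r 0.68 without the 2 farthest). There r was 0.53 with Drd2 (0.16 without the 2 farthest) and 0.26 with Penk (-0.09 without them). In the D2 groups r was -0.29 with Drd2 and -0.45 with Penk in dorsal striatum (rho -0.44 and -0.64, n = 16), and 0.05 and -0.33 in ventral striatum (n = 14). With Gpr6 it was 0.17 in D2 dorsal striatum (rho 0.34, and r 0.66 without the 2 farthest) and -0.13 in D2 ventral striatum (0.23 without them), so the 3 markers did not run one way. These are descriptions, and depth and the name code also differ between the libraries of a group. The D1 dorsal library with the highest Adora2a, replicate 5 at 10.3 CPM, also had the highest summed D2 markers of its group, 90.7 CPM against a median of 62.8 CPM. In prefrontal cortex the highest Adora2a (replicate 6, 0.79 CPM) was in the library with the highest summed striatal neuron markers, 433.3 CPM against a median of 138.1 CPM. Over the 19 cortex libraries r with that sum was 0.47 (rho 0.15), and -0.24 without the 2 libraries farthest from its median.

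Within the D2 groups Adora2a varied more between libraries than Drd2, Penk, Gpr6, Nt5e and Adk. Its highest library was 7.13 times its lowest in dorsal striatum and 6.45 times in ventral striatum. Of the weakly expressed transporters, Slc29a2 spanned more in dorsal striatum (11.25 times, at a mean of 1.12 CPM). In ventral striatum both transporters spanned more than Adora2a. Slc29a1 spanned 7.44 times, at 1.30 CPM, and Slc29a2 spanned more still, from 0.177 to 1.875 CPM at a mean of 0.865 CPM. Over the same libraries the highest Drd2 value was 1.93 and 3.51 times the lowest, Penk 2.49 and 1.85 times, Gpr6 1.80 and 2.56 times, Nt5e 1.79 and 2.07 times and Adk 1.94 and 2.98 times. The coefficient of variation of Adora2a was 43.7% in dorsal striatum, where the median of 496 genes with a mean within 2-fold of it was 21.6% and 23 of them had a larger one. In ventral striatum it was 48.1% against a median of 24.1% over 1228 such genes, 45 with a larger one. Both name codes held wide spreads: in D2 dorsal striatum EM libraries ran from 52.7 to 375.8 CPM and OdP libraries from 118.4 to 349.2 CPM. The share of a library's reads that fell in genes also differed between these libraries, and its part was not tested. In D2 dorsal striatum replicate 6, with the highest share (40.2%), had 52.7 CPM, and replicate 4, with the lowest (33.1%), had 373.2 CPM. In D2 ventral striatum replicate 6 (39.8%, the highest) had 37.0 CPM and replicate 3 (34.7%, the lowest) had 201.6 CPM. The lowest library of D2 dorsal striatum, replicate 6, still held 2075 reads of Adora2a.

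**Figure D2:**
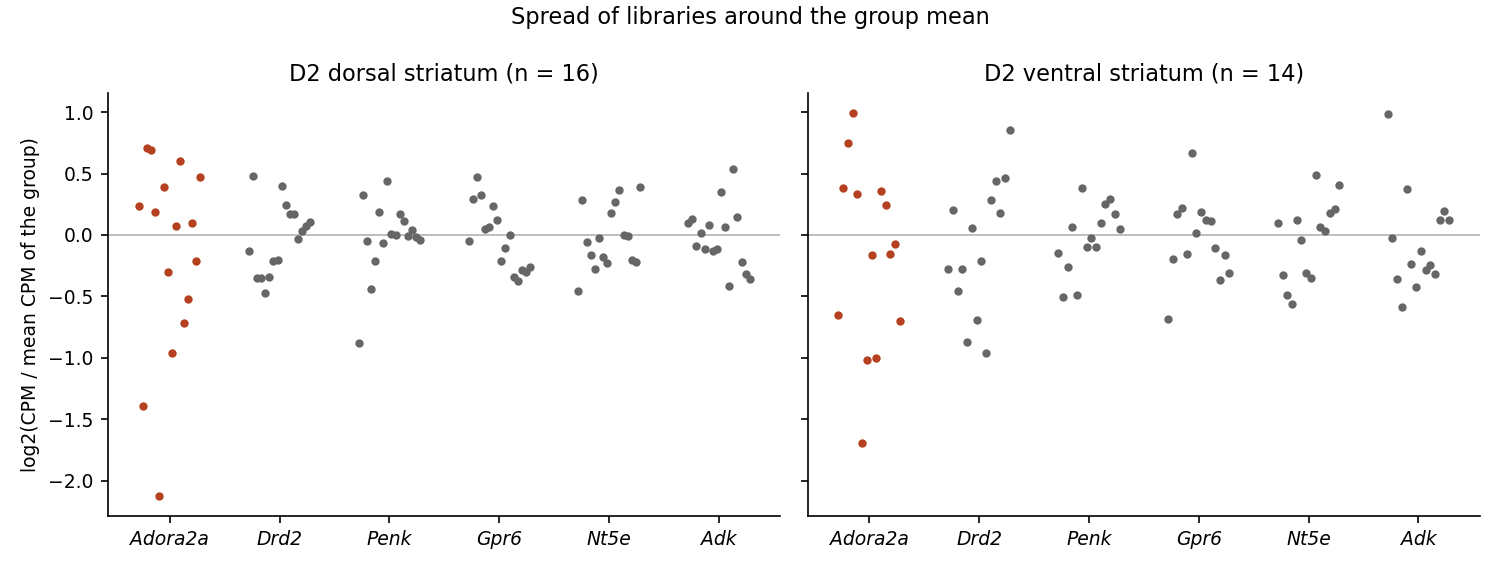
Each dot is one D2 library, plotted as log2 of its CPM over the mean CPM of its group (vertical axis) for Adora2a, 3 D2 neuron markers, Nt5e and Adk (horizontal axis). Adora2a spans 7.13-fold from lowest to highest in dorsal striatum and 6.45-fold in ventral striatum, wider than the other 5 genes in both panels.

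Adora1, the inhibitory receptor, had the narrowest spread of log2 levels over the 79 libraries among the 6 members tested. Its CPM ran from 42.6 through a median of 61.9 to 87.6 in D1 dorsal striatum, from 38.4 through 53.6 to 81.4 in D2 dorsal striatum, from 33.5 through 40.8 to 69.0 in D1 ventral striatum, from 35.1 through 48.6 to 65.6 in D2 ventral striatum and from 43.0 through 55.0 to 105.4 in cortex. All 5 groups overlapped. No receptor difference was called in dorsal (0.13, 95% confidence interval -0.09 to 0.35, adjusted p = 0.376) or ventral striatum (-0.11, interval -0.34 to 0.12, adjusted p = 0.439), so a difference beyond about 0.35 in either direction lay outside both intervals.

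In D1 neurons Adora1 was lowest in ventral striatum. It was 1.36-fold higher in dorsal striatum (0.44, SE 0.11, adjusted p = 0.00126) and 1.34-fold higher in cortex (0.41, SE 0.11, adjusted p = 0.00158), while cortex and dorsal striatum did not separate (-0.04, interval -0.26 to 0.19). In D2 neurons the dorsal minus ventral difference was 0.20 (SE 0.12, adjusted p = 0.194) with limma, and edgeR on recovered reads called it at 0.34 (adjusted p = 0.0457). From highest to lowest mean the order was D1 dorsal striatum (61.7 ± 12.7 CPM), cortex (61.0 ± 17.4), D2 dorsal striatum (56.5 ± 12.4), D2 ventral striatum (49.2 ± 11.1) and D1 ventral striatum (45.4 ± 10.5), and no neighbours in that order were called different, though groups further apart were.

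Adora1 also differed between library name codes. Within D2 dorsal striatum 8 EM libraries had 48.2 ± 6.86 CPM and 8 OdP libraries 64.9 ± 11.01 CPM, a difference of -0.42 (SE 0.11, adjusted p = 0.00837). Adora1 was the only one of 6 members called in that comparison of codes, where 30.2% of all genes were called. In cortex the 3 BdP libraries had 87.3 to 87.7 CPM and the JAG library 105.4 CPM, above all 15 EM libraries (43.0 to 60.5 CPM). With EM libraries alone the D1 contrasts of Adora1 were called as before, at 0.47 for dorsal against ventral striatum (adjusted p = 0.000111) and 0.39 for cortex against ventral striatum (adjusted p = 7.01e-06).

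**Figure D3:**
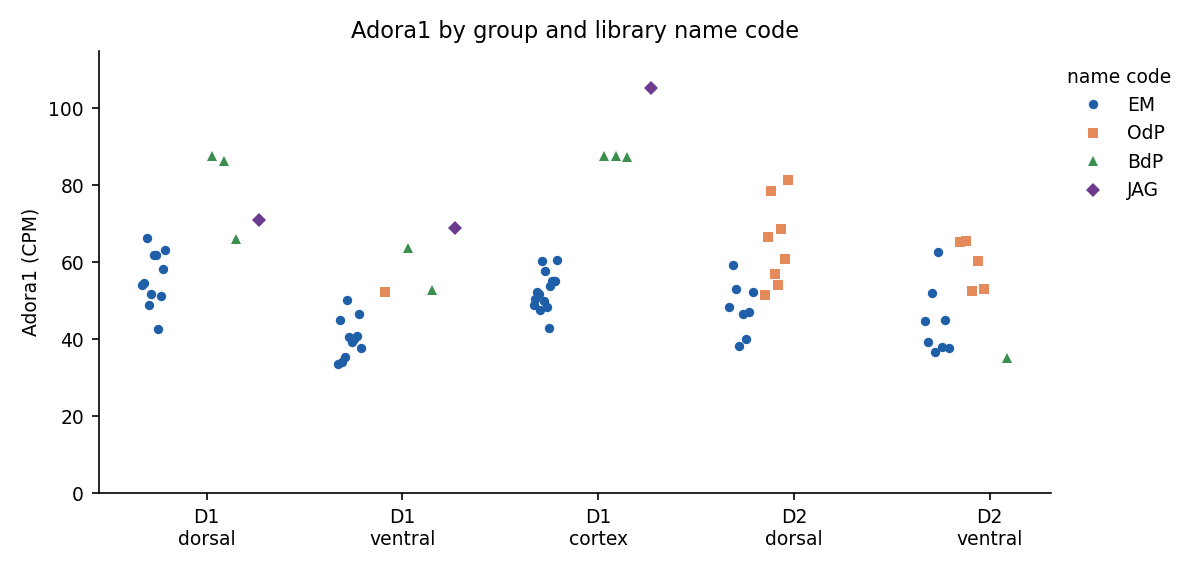
Adora1 in CPM (vertical axis, from 0) for every library by group (horizontal axis), with symbols for the 4 library name codes. In cortex the BdP and JAG libraries (87.3 to 105.4 CPM) sit above all EM libraries (43.0 to 60.5 CPM), and in both D2 groups the OdP mean is above the EM mean.

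Adora2b, the second stimulatory receptor, was close to absent from the counts. Its highest value was 0.19 CPM, in a cortex library, and 52 of the 79 libraries had no read. None of the 16 D2 dorsal striatum libraries had a read, which allows up to 3 reads in each, or 0.0387 to 0.140 CPM by library, for counting error alone. In cortex 16 of 19 libraries had a read, 59 reads in all, and its mean was 0.0645 ± 0.0538 CPM. The filter left the gene out of all comparisons. Without the filter only cortex against D1 ventral striatum was called (0.15, SE 0.04, adjusted p = 0.000865), a difference of 59 against 6 reads in all.

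Nt5e, which encodes CD73, followed Adora2a in its order over the groups. Its CPM ran from 11.4 through a median of 15.2 to 20.4 in D2 dorsal striatum and from 8.44 through 12.9 to 17.4 in D2 ventral striatum. In D1 dorsal striatum it ran from 0.0968 through 0.73 to 1.34, and in D1 ventral striatum from 0.678 through 1.76 to 2.46. The lowest D2 library thus lay above the highest D1 library by several CPM. In cortex it ran from 0 through 0.20 to 0.82 CPM with no read in 2 of 19 libraries.

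Mean Nt5e was 22.8-fold higher in D2 than D1 neurons of dorsal striatum (15.6 ± 2.77 against 0.684 ± 0.303 CPM; log2 difference -3.80), values that stand as a description because the filter fixed their direction. The ratio was 7.29 in ventral striatum (12.4 ± 2.76 against 1.70 ± 0.433 CPM; -2.55, SE 0.12, adjusted p = 2.40e-18), and the interaction was called (-1.25, SE 0.17, adjusted p = 7.20e-07). In D1 neurons Nt5e was 2.49-fold higher in ventral striatum (-0.91). There 14 of 15 libraries reached 1 CPM, against 1 of 15 in dorsal striatum, and together these just met the filter. Nt5e thus passed almost wholly through ventral striatum, so this too is a description. In D2 neurons it was 1.26-fold higher in dorsal striatum (0.33, SE 0.11, adjusted p = 0.0206), a call that was lost within EM libraries (adjusted p = 0.0963) and within OdP libraries (adjusted p = 0.241). As a share of the D2 mean, the D1 mean of Nt5e was 4.38% in dorsal and 13.7% in ventral striatum. That was above the shares of Drd2, Penk, Gpr6 and Ttc12 in both, though near that of Gpr6 in ventral striatum (13.4%). It was below the shares of Sp9 (12.9% and 29.2%).

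In cortex Nt5e did not pass the filter in either comparison. Without the filter it was lower in cortex than in D1 dorsal striatum (-0.67, SE 0.15, adjusted p = 0.000324) and than in D1 ventral striatum (-1.58, SE 0.14, adjusted p = 5.24e-12).

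Adk, adenosine kinase, was also higher in D2 neurons but had an order of its own. Its CPM ran from 10.5 through a median of 13.9 to 31.4 in D2 ventral striatum and from 7.22 through 9.40 to 14.0 in D2 dorsal striatum. In D1 ventral striatum it ran from 1.75 through 2.58 to 3.86, and in D1 dorsal striatum from 1.20 through 2.51 to 3.96. No D1 striatal library reached the lowest D2 library of its region. The cortex median lay between those of the D1 and D2 striatal groups, with a range from 2.75 through 6.64 to 8.77 CPM.

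Mean Adk was 3.86-fold higher in D2 than D1 neurons of dorsal striatum (9.63 ± 1.76 against 2.50 ± 0.754 CPM; -1.78, SE 0.12, adjusted p = 1.62e-14) and 6.07-fold higher in ventral striatum (15.8 ± 5.28 against 2.61 ± 0.556 CPM; -2.36, SE 0.13, adjusted p = 3.72e-17). Between regions Adk went the other way from Adora2a and Nt5e: in D2 neurons it was 1.65-fold higher in ventral striatum (-0.65, SE 0.12, adjusted p = 7.49e-05), and in D1 neurons no difference was called (-0.08, interval -0.32 to 0.17, adjusted p = 0.66). The interaction was 0.58 (SE 0.17, adjusted p = 0.0484) and was called under 3 of 11 alternatives, with adjusted p up to 0.225. The highest library, D2 ventral striatum replicate 1 at 31.4 CPM, is the only D2 library with a BdP name. Without it the ventral receptor difference was -2.28 (adjusted p = 4.28e-18), the regional difference in D2 was -0.58 (adjusted p = 8.12e-05) and the interaction was 0.50 (adjusted p = 0.0824), no longer called.

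In D1 neurons Adk was higher in cortex than in striatum, 2.57-fold against dorsal (6.41 ± 1.40 against 2.50 ± 0.754 CPM; 1.22, SE 0.12, adjusted p = 3.81e-11) and 2.45-fold against ventral striatum (1.14, SE 0.11, adjusted p = 2.43e-12). In each comparison 18 of 19 cortex libraries were above every striatal library. Astrocytes are known to express adenosine kinase, and all 6 astrocyte markers were higher in cortex in both comparisons. Their sum ran from 10.3 through a median of 27.3 to 58.2 CPM in cortex and had medians of 6.44 and 4.60 CPM in D1 dorsal and ventral striatum. None of the 6 markers was at 0 in every library of a group. Within cortex Adk and the astrocyte sum had r 0.20 (rho 0.17, n = 19), and r -0.03 without the 2 libraries farthest from the median sum. Cortex replicate 10 had the highest sum (58.2 CPM) and the highest Adk (8.77 CPM). In striatum r was 0.30 in D1 dorsal, 0.11 in D1 ventral, -0.17 in D2 dorsal and 0.40 in D2 ventral libraries. Without the 2 farthest libraries these were 0.09, 0.32, -0.10 and 0.32. The part of astrocytes was not tested. Between receptors the astrocyte sums had nearer medians, 5.79 and 6.39 CPM in D2 dorsal and ventral striatum, and limma called 0 of 2 and 0 of 1 astrocyte markers tested. Cholinergic interneuron markers moved with Adk in the receptor comparisons and their part was not tested: in dorsal striatum the 1 marker tested and in ventral striatum all 3 were higher in D2, and in D2 neurons 2 of 3 were higher in ventral striatum. Within D2 dorsal striatum Adk and the cholinergic sum had r 0.54 (rho 0.33, and r 0.29 without the 2 farthest libraries). Replicate 12 there had the highest sum (14.2 CPM) and the highest Adk (14.0 CPM). Within D2 ventral striatum r was 0.19 (rho -0.06, and r 0.17 without the 2 farthest). Oligodendrocyte markers moved with the members too: 3 of 5 tested in dorsal and 2 of 3 in ventral striatum were called, all higher in D2. Their summed medians were 111.8 and 82.2 CPM in D2 dorsal and ventral striatum against 74.0 and 47.1 CPM in D1, and their part in the values of Adk and Nt5e was not tested. GABA interneuron markers were called higher in cortex in 6 of 6 against dorsal and 5 of 6 against ventral striatum, and in D2 neurons 4 of 5 were higher in ventral striatum, as Adk was. Their sums had medians of 164.0 CPM in cortex, 37.2 and 28.5 CPM in D1 dorsal and ventral striatum, and 14.1 and 33.7 CPM in D2, and their part was not tested. Many markers, all 6 of astrocytes among them, passed the filter only through the group where they were higher, so the marker counts are descriptions.

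Slc29a1, the transporter ENT1, was highest in dorsal striatum. Its CPM ran from 2.13 through a median of 3.24 to 5.19 in D1 dorsal striatum and from 0.614 through 1.52 to 1.98 in D1 ventral striatum, with every dorsal library above every ventral one. In D2 neurons it ran from 1.19 through 2.04 to 3.24 in dorsal and from 0.403 through 1.11 to 3.00 in ventral striatum, with overlap. Cortex was lowest, from 0.325 through 0.721 to 1.89 CPM. The dorsal minus ventral difference was 0.97 in D1 (2.31-fold) and 0.60 in D2 neurons (1.63-fold), and 0.33 in D2 within OdP libraries. These are descriptions, since 1 CPM was reached in every dorsal library but in only 13 of 15 D1 and 8 of 14 D2 ventral libraries, and the gene passed the filter through dorsal striatum. Markers of other cells also differed between these regions in D1 neurons. Higher in dorsal striatum were 3 of 3 oligodendrocyte, 2 of 5 cortical excitatory and 3 of 5 GABA interneuron markers tested. Another 2 GABA interneuron and 2 of 2 choroid plexus markers were lower. These counts are descriptions, and their part in Slc29a1 and Adora1 was not tested. A receptor difference of Slc29a1 was called in dorsal striatum alone, 1.55-fold higher in D1 (0.53, SE 0.13, adjusted p = 0.00206). In EM libraries it was 0.45 (adjusted p = 0.0833), and the call was kept under 9 of 11 alternatives. The ventral difference was 0.16 (adjusted p = 0.433), and the interaction was not called (0.37, SE 0.20, adjusted p = 0.379). Cortex was 3.82-fold below D1 dorsal striatum (-1.51) without overlap and 1.65-fold below D1 ventral striatum (-0.54). Only 5 of 19 cortex libraries reached 1 CPM, against 15 of 15 and 13 of 15 in striatum, so the gene passed the filter through striatum and both values are descriptions.

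Slc29a2, the transporter ENT2, was low in all groups, with group medians between 0.735 and 1.46 CPM and from 0 to 166 reads in a library. Of the 6 comparisons by receptor or region only that by receptor in ventral striatum was called, with 1.32 ± 0.333 CPM in D1 and 0.865 ± 0.540 CPM in D2 (0.50, SE 0.17, adjusted p = 0.0148). The groups overlapped, although 8 of 14 D2 libraries lay below every D1 library. The call was lost with edgeR (adjusted p = 0.0608), DESeq2 (0.0501) and a covariate for the share of a library's reads that fell in genes (0.597). None of the other 5 comparisons by receptor or region called it (adjusted p from 0.444 to 0.804 with limma). No neighbours in the order of its 5 group means were called different. The highest, D1 cortex, differed from the lowest, D2 ventral striatum, by 0.45, a description because 15 of 19 cortex and 5 of 14 D2 ventral libraries reached 1 CPM and the gene passed the filter through cortex.

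**Figure D4:**
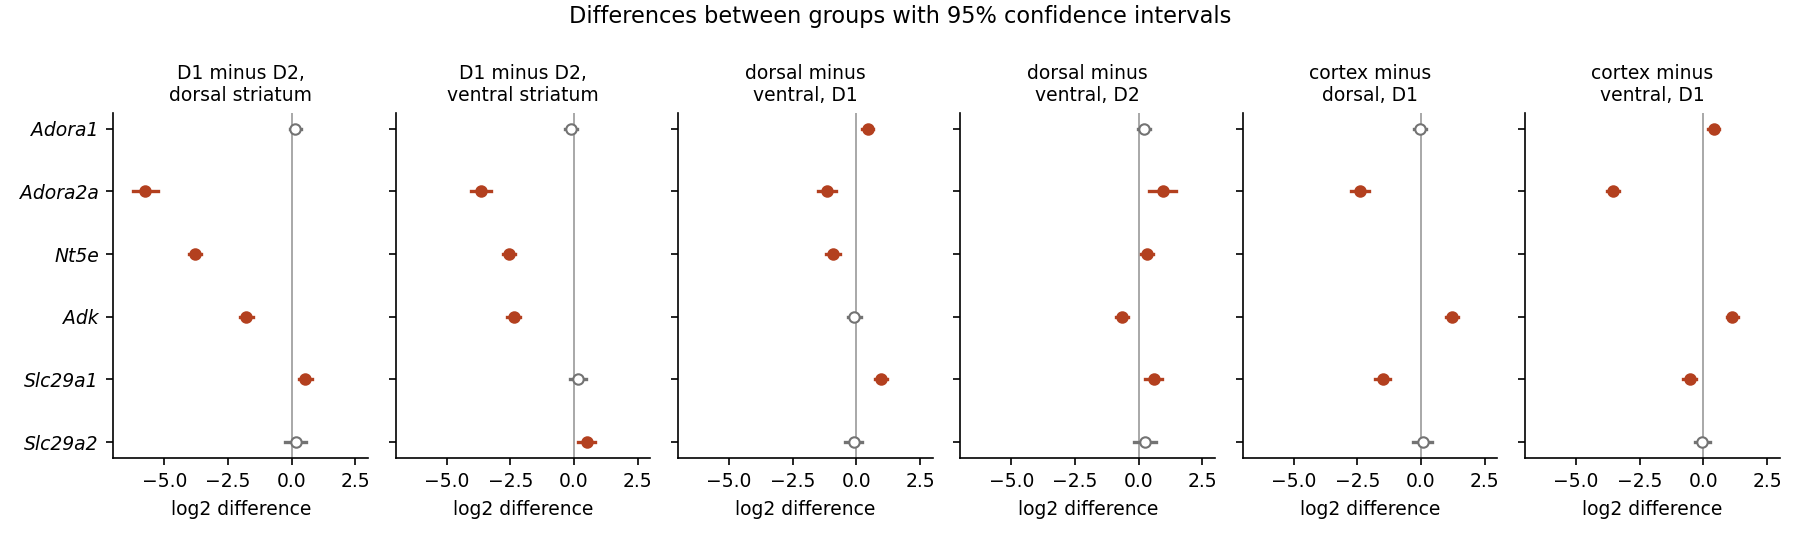
Log2 difference (horizontal axis, on log2(CPM + 0.5)) of 6 members in the 6 comparisons by receptor or region, as a dot with its 95% confidence interval, filled where the adjusted p is under 0.05. Adora2a and Nt5e are lower in D1 than D2 in both regions and change sign between the D1 and D2 regional panels, while Adk is higher in cortex (1.22 and 1.14); Nt5e was not tested in the cortex comparisons.

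Over the regional comparisons in striatum, 4 of 6 members were called in D1 neurons, 2 higher in dorsal and 2 higher in ventral striatum, against 34.6% of all genes. In D2 neurons 4 of 6 were called, 3 higher in dorsal and 1 in ventral striatum, against 28.5% of all genes, and within EM or within OdP libraries alone the count was 2. The D1 count includes Nt5e and Slc29a1 and the D2 count Slc29a1, which passed the filter wholly or almost wholly through the group where they were higher, so the counts are not read against that share. The median of all genes was -0.12 in both comparisons, with 1144 genes called higher and 2774 lower in dorsal striatum in D1 and 887 and 2302 in D2. With median-ratio scaling the medians were -0.01 and -0.0043 and the calls 1678 and 1607 in D1 and 1353 and 1373 in D2. In cortex 3 of 5 members tested were called against dorsal striatum (1 higher, 2 lower in cortex), with 54.8% of all genes, and 4 of 5 against ventral striatum (2 higher, 2 lower), with 62.8% of all genes. The 2 cortex comparisons share the cortex libraries, and the D1 groups stand in several comparisons, so these counts are not independent of each other. The 2 members lower in cortex were Adora2a (0 of 19 cortex libraries reached 1 CPM) and Slc29a1 in both comparisons; both genes passed through striatum, which fixed their direction, so the cortex counts are not read. The interaction called 3 of 6 members, Adora2a, Nt5e and Adk, against 2.64% of all genes.

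The number of males in the pool (2 against 1, with group as a term, in 44 and 33 libraries) called 0 of 6 members with limma, edgeR or DESeq2, against 0.0961% of all genes. At an unadjusted p under 0.05 there were 2 members, Adora2a, 0.30 higher with 2 males (adjusted p = 0.289), and Adk, with -0.20 (adjusted p = 0.197). Neither passed the adjustment, and the labels gave the sex of all 3 mice for all but 2 cortex libraries.

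Other genes of adenosine and nucleotide metabolism were taken from a list of 35, of which 34 were in the table and 17 or 18 passed the filter per comparison. Adora3, the remaining adenosine receptor, and Ada, adenosine deaminase, were too low to test, with at most 0.163 and 0.36 CPM in a library. In dorsal striatum 9 of 18 were called by receptor, 8 higher in D1 and 1 higher in D2 neurons, against 25.9% of all genes. In ventral striatum 11 of 18 were called, 6 higher in D1 and 5 higher in D2, against 47.7%. The largest were smaller than the receptor differences of Adora2a, Nt5e and Adk: in dorsal striatum the nucleotidase Nt5c (0.70, adjusted p = 0.0128) and the purine phosphorylase Pnp2 (0.60, adjusted p = 0.0265) were higher in D1, and the AMP deaminase Ampd3 higher in D2 (-0.62, adjusted p = 0.00101). In ventral striatum the lysosomal transporter Slc29a3 was higher in D2 (-0.90, adjusted p = 7.56e-05), and Aprt (0.89, adjusted p = 0.00186), which salvages adenine, and Nt5c (0.81, adjusted p = 0.0022) were higher in D1.

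By region the list was led by Entpd1, which encodes CD39, the surface enzyme that turns ATP and ADP into the AMP that CD73 uses. Entpd1 ran from 5.37 through a median of 7.25 to 15.2 CPM in D1 dorsal striatum and from 0.457 through 1.10 to 2.69 CPM in D1 ventral striatum, without overlap (a difference of 2.38). In D2 neurons it ran from 4.90 through 7.54 to 12.2 CPM in dorsal and from 0.393 through 1.97 to 6.84 CPM in ventral striatum (1.72), with 13 of 14 ventral libraries below every dorsal one. Cortex was at 1.17 ± 0.758 CPM, below D1 dorsal striatum in all 19 libraries (-2.44). These 3 differences are descriptions: every dorsal library reached 1 CPM, against 10 of 15 D1 ventral, 11 of 14 D2 ventral and 8 of 19 cortex libraries, so Entpd1 passed the filter through dorsal striatum. By receptor, the Entpd1 means of 8.18 and 7.77 CPM in D1 and D2 dorsal striatum were not called different (adjusted p = 0.804), and in ventral striatum Entpd1 was higher in D2 (-0.61, SE 0.22, adjusted p = 0.0245). Ahcyl2, a relative of adenosylhomocysteinase, was the other large regional difference, higher in ventral striatum in D1 (-0.97, adjusted p = 7.80e-13) and in D2 neurons (-0.75, adjusted p = 8.05e-08). In all, 6 of 18 genes were called by region in D1 (2 higher, 4 lower in dorsal), against 34.6% of all genes, and 5 of 18 in D2 neurons (1 higher, 4 lower), against 28.5%; both counts include Entpd1, and the shares are near the background.

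**Figure D5:**
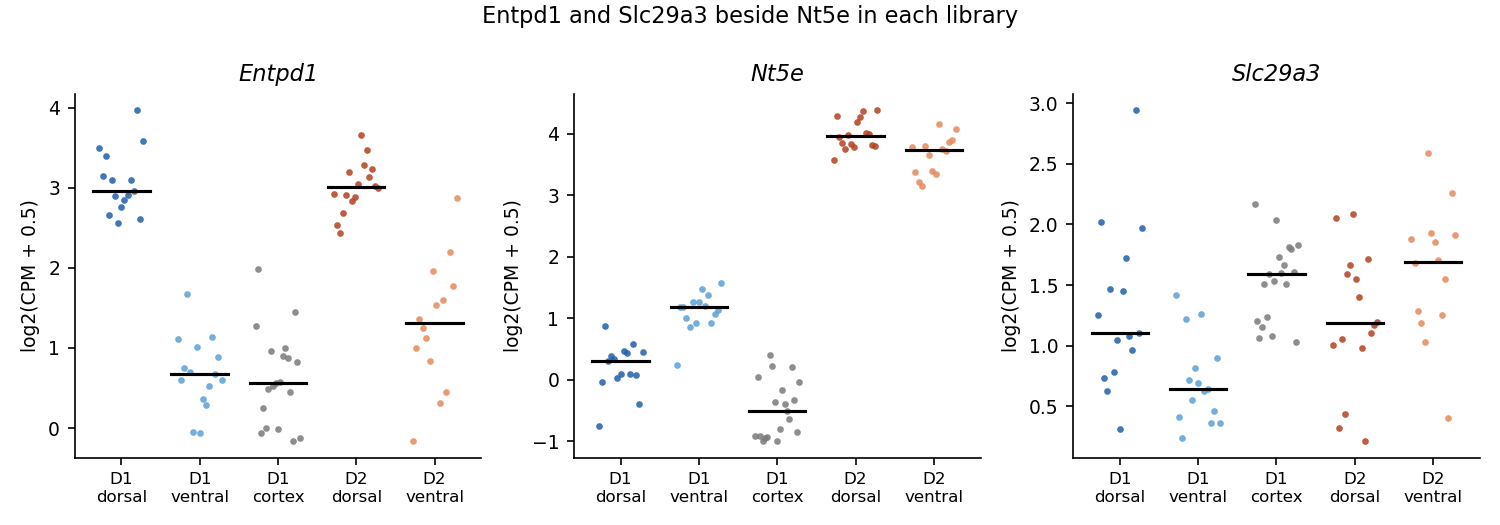
Entpd1 and Slc29a3 beside Nt5e in every library, as log2(CPM + 0.5) with a bar at the group median, groups along the horizontal axis and one vertical scale per panel. Entpd1 is high in both dorsal striatum groups (medians 7.25 and 7.54 CPM) and Nt5e in both D2 groups (medians 15.2 and 12.9 CPM).

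In cortex 11 of 17 genes of the list were called against dorsal striatum (6 higher, 5 lower; 54.8% of all genes were called) and 11 of 17 against ventral striatum (5 higher, 6 lower; 62.8% of all genes). Beside Entpd1, the ectonucleotidase Entpd3 had lower values in cortex than in dorsal (-1.38) and ventral striatum (-1.16), a description because 8 of 19 cortex libraries and all striatal D1 libraries reached 1 CPM. Ahcy, adenosylhomocysteinase, was lower in cortex than in both (-0.98, adjusted p = 2.93e-10, and -1.10, adjusted p = 6.31e-12). Nt5c3 was higher in cortex than in ventral striatum (1.03, adjusted p = 1.16e-10). Slc29a3 was the 1 of 18 genes of the list called in the interaction (0.97, SE 0.28, adjusted p = 0.0365).

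Of 15 genes for G protein subunits, effectors and receptors known to act downstream of or beside adenosine receptors in striatal neurons, 9 were called by receptor in dorsal and 11 in ventral striatum, against 25.9% and 47.7% of all genes. The list holds Drd1a and Drd2, the genes whose promoters define the lines. Beside Drd2 and Drd1a, the largest was Gnai1 in dorsal striatum, an inhibitory G protein subunit, higher in D1 (1.54, adjusted p = 1.05e-09), and Gnao1 in ventral striatum, the Go subunit, higher in D2 (-0.77, adjusted p = 1.09e-08). By region 12 of 15 were called in D1 and 10 of 15 in D2 neurons, against 34.6% and 28.5% of all genes, and the largest difference in both was the cannabinoid receptor gene Cnr1, higher in dorsal striatum (2.57 and 2.74).

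The genes whose pattern over all 79 libraries was most like each member were taken by the smallest root mean square difference of centred log2(CPM + 0.5) values among 12334 genes. For Adora2a these were Penk (0.84), Gpr6 (0.99) and Drd2 (1.15), against the gene's own root mean square of 3.16 about its mean, with Ankk1 (1.44) and Nt5e (1.49) next. For Nt5e (1.87) they were Slitrk6 (0.64), Ankk1 (0.73) and Gpr6 (0.78). Adk (0.97) was most like Necab1 (0.49), Sox2 (0.53) and Gm11837 (0.58), and so shared none of its 3 nearest genes with Adora2a or Nt5e. Adora1 (0.35) was nearest to Ncan (0.22), and the transporters Slc29a1 (0.65) and Slc29a2 (0.54) to Cnnm2 (0.42) and Tmem214 (0.36), distances that are not small beside their own spread.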

How the data were processed

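The authors deposited one table of CPM values (reads scaled to a common library total) per gene symbol and library. Per the labels' protocols, GFP-tagged ribosomes were immunoprecipitated and their RNA was made into libraries that were sequenced as 50-base reads. The submitters' processing notes name Trim Galore 0.4.2, cutadapt 1.9.1, FastQC, HISAT2 and the GRCm38 genome. The counting program and its strand setting are not given in the sources used here. Columns summed to 309566 to 401527 CPM, so the deposited values refer to a total larger than the reads in listed genes. All values above 0 were whole multiples of 1 read (tolerance 0.02 read), which gave back the reads.

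All 79 columns matched labelled samples. Groups came from the labelled receptor and region. Differences were fitted with limma 3.58.1 (R 4.3.3) on log2(CPM + 0.5), with a trend in the variance, two-sided tests and Benjamini-Hochberg adjustment over all genes passing the filter of 1 CPM. Each fit used the groups compared, and the interaction used the 4 striatal groups. The test for the number of males left out 2 cortex libraries with incomplete sex labels. Alternatives were pseudocounts of 0.1 and 1, no filter, 2 other scalings, edgeR 4.0.16 (quasi-likelihood) and DESeq2 1.42.0 on the recovered reads, covariates for the share of reads in genes and for the name code, EM or OdP libraries alone, and leaving out 2 libraries high in cortical markers. Leaving out D2 ventral striatum replicate 1 was added after seeing the data. The limma code was tested on simulated data. No pair of libraries in a group agreed within sampling noise (lowest chi-square per degree of freedom 7.96). Reads carry no molecular identifiers, so floors and read numbers cover counting error only, and p-values measure the spread between pools.

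The members and lists were chosen with earlier results of these data known. All 7 members are described. From the lists, the called genes with the 3 largest differences per comparison could be named, and for likeness the nearest genes by root mean square difference. Gene positions are from GENCODE M21 and promoters from RefSeq.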

Additional observations from a re-analysis of the deposited data

Results flagged for a closer look

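For 3 members, Adora2a, Nt5e and less firmly Adk, the difference between D1 and D2 neurons differed between dorsal and ventral striatum by a direct test, the interaction of receptor and region in limma, which called 2.64% of all genes. Adora2a had an interaction of -2.09 (SE 0.32, adjusted p = 1.12e-05), from receptor differences of -5.74 in dorsal and -3.65 in ventral striatum. Nt5e had -1.25 (SE 0.17, adjusted p = 7.20e-07), from -3.80 and -2.55. Both were called under all 11 alternatives. The 5 D2 neuron markers measured were called in the same direction, Drd2 at -1.40, Penk at -1.93, Gpr6 at -2.30, Sp9 at -1.10 and Ttc12 at -0.70, and their part in the members' values was not tested. Adk had an interaction of the opposite sign, 0.58 (SE 0.17, adjusted p = 0.0484), from -1.78 in dorsal and -2.36 in ventral striatum, and without D2 ventral striatum replicate 1 it was 0.50 (adjusted p = 0.0824). The Adk interaction was called under 3 of the 11 alternatives, with adjusted p up to 0.225 in the EM libraries.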

How the results depend on the processing

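Over 436 recomputed member differences, the 26 called ones kept direction and call in 266 cases and lost the call in 17. Adora2a and Adk kept their receptor calls in both regions, and Nt5e its call in ventral striatum, under every alternative run. The uncalled differences kept their side in 138 cases, gained a call in 1 and changed sign in 14, all at small sizes. Slc29a2 changed sign to -0.0892 by receptor in dorsal striatum with the covariate for reads in genes, and between striatal regions in D1 to 0.0656 (edgeR) and 0.0727 (DESeq2). Between cortex and ventral striatum it became 0.0734 (edgeR), 0.0712 (DESeq2) and 0.0152 (median-ratio scaling), and between cortex and dorsal striatum -0.024 (edgeR), -0.0035 (DESeq2) and -0.0485 (EM libraries). Adora1 by receptor in ventral striatum became 0.00094 when scaled to reads in genes and 0.16 with the covariate. Adk between striatal regions in D1 became 0.0186 with median-ratio scaling, 0.0425 with edgeR and 0.0512 with DESeq2. The count of members called between regions in D2 fell from 4 to 2 in EM and to 2 in OdP libraries, which are fewer samples, and between name codes it rose from 1 to 2 with the covariate. The cause of the other changes was not tested. The interaction called 3 members, and 2 under 8 of the 11 alternatives, among them edgeR, EM libraries alone and the fit without D2 ventral striatum replicate 1; the member lost in each was Adk.

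Scaling to reads in genes moved the median of all genes by receptor in ventral striatum from 0.02 to 0.14, and the calls from 2751 higher and 2692 lower in D1 to 3702 and 1885. In dorsal striatum they went from 1424 and 1447 to 1675 and 1145. Adora2b had at most 13 reads in a library, and median reads were 8 for cortical Adora2a, 7 for cortical Nt5e and 28 for Nt5e in D1 dorsal striatum, which limits the precision of those values. No paired analysis was made, because the labels give no replicate numbers and do not state shared mice. Within a letter code only 1 number in the library names recurs across groups (JAG13 and JAG13bis, D1 dorsal and ventral striatum). Consecutive names often ran through the regions of a line. The order of library names states no shared mice and was not used to pair them, so the fits leave out any pairing there was.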
